A study of Homo sapiens with 11 samples.

Results

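The genes described here set the pace of the G1 phase of the cell cycle: the D cyclins CCND1, CCND2 and CCND3, the kinases CDK4 and CDK2, the inhibitors CDKN1B, CDKN1C and CDKN2C, and the pocket proteins RB1 and RBL1. Every probe that the platform's annotation gives to one of these 10 genes was taken, which found 13 of 48803 probes and 9 of the 10 genes. CDKN2C had no probe under its symbol and was not analysed here. Of the 13 probes 12 were kept, each detected on all 11 arrays. CCND2, CDK2 and CDKN1B had 2 kept probes each, and a second RBL1 probe, detected on 0 of 11 arrays, was left out.

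In a cycling cell D cyclins bind CDK4 or CDK6 and start the phosphorylation of RB1 and its relatives RBL1 and RBL2, which hold back the E2F transcription factors. CDK2 with cyclin E continues it, E2F factors are released, and genes of DNA replication are switched on. CDKN2C belongs to the INK4 inhibitors of CDK4 and CDK6, while CDKN1B (p27) and CDKN1C (p57) bind cyclin and kinase together. Pluripotent cells, embryonal carcinoma cells among them, are known for a short G1 phase.

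Expression was measured in NT2D1, a human embryonal carcinoma line, with total RNA of each sample on 1 Illumina bead array. All cells stably carried TetR3, a tetracycline repressor, and an shRNA, a short hairpin that silences its target, here L1TD1, which doxycycline (dox) switches on. L1TD1 encodes a protein that binds RNA in pluripotent cells. All samples were taken on day 6. The groups were dox+ with title prefix 5 (3 samples) and with title prefix 1 (3 samples), and dox- with title prefix 5 (2 samples) and with title prefix 1 (3 samples). The prefix is the first number of a sample's title, and the file headers carry the same number in the name of the hairpin. The design lists 6 clones, each with an induced and a non-induced sample, and states that 1 sample was left out for not clustering with its group. None of the 11 samples lacked the hairpin or carried a non-targeting one, so the presence of doxycycline and the loss of L1TD1 cannot be told apart.

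The targeted gene, L1TD1, averaged 7.84 ± 0.37 in dox+ samples (SD, n = 6) and 8.74 ± 0.17 in dox- samples (SD, n = 5) on the log2 scale, a difference of -0.91 ± 0.18 (SE) or 53.4% of the dox- level (exact two-sided permutation p = 0.00433; limma adjusted p = 0.0753). Between 13301 and 15127 probes were detected per array. The mean raw intensity of an array was 373 ± 26.9 in dox+ and 427 ± 29.2 in dox- samples (SD, exact permutation p = 0.0152), and its part in the differences below, which were taken after normalization, was not tested. Of 10 listed markers of embryonal carcinoma cells 9 had a probe and all 9, POU5F1, SOX2 and NANOG among them, were detected on all arrays, with a summed level of 39822 to 48444 in dox+ and 38682 to 47071 in dox- samples. Of the endoderm markers 0 of 4 were kept, AFP, SOX17 and GATA6 being detected on 0 arrays, and trophoblast markers (3 of 4 kept) summed to 198 to 821 in dox+ and 224 to 375 in dox- samples. Fibroblast markers (3 of 6 kept) summed to 1561 to 3789 in dox+ and 2383 to 4010 in dox- samples, and neuronal markers (4 of 6 kept) to 2309 to 4346 in dox+ and 3118 to 4985 in dox- samples. The part of these other cell types in the results was not tested. In such bulk RNA, fewer cells in which a gene is active and less RNA per cell cannot be told apart.

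Promoters of CDK4 and RBL1, from 250 bases before to 50 bases after the start, are shown because both genes were among those with the larger differences below and carry letters of a factor of this pathway. RBL1 is known as a gene that E2F factors regulate and CDK4 as a target of MYC, which binds the E-box. The sequences are RefSeq's for GRCh38.p14, both genes lying on the minus strand, RBL1 at chr20:37095948-37096247 and CDK4 at chr12:57752261-57752560. Capitals mark the words TTTCGCGC and TTTGGCGC in RBL1, 2 of the 4 E2F words searched (with TTTCCCGC and TTTGCCGC), and the E-box CACGTG in CDK4, searched on both strands.
RBL1: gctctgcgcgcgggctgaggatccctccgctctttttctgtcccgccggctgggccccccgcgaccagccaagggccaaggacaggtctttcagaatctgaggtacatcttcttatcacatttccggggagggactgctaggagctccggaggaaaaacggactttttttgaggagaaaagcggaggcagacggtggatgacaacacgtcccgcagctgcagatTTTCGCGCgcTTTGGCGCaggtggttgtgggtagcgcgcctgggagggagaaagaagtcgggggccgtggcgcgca
CDK4: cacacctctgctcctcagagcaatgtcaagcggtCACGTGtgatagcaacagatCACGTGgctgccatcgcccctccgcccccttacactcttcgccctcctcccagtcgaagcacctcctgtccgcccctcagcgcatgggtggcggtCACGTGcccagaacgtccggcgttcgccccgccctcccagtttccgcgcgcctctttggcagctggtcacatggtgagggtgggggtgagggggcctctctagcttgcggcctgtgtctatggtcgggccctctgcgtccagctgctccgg
The E2F words of RBL1 begin at 26 and at 16 bases before the start and do not overlap; the E-boxes of CDK4 begin at 216, 196 and 101 bases before it. Among the 35116 promoters tabulated, 3.31% hold one of the E2F words and 7.26% hold the E-box. The table held promoters of 6 of the 10 genes, and the motifs were chosen after values had been seen. The words GGGCGG and TGACGT, held by 45% and 7.98% of the promoters, were searched as well. GGGCGG was found in windows of CDK4, CCND3, CDKN1B and CDKN2C, and TGACGT in windows of CDKN2C. The E-box was also found in windows of CDKN2C. The RB1 window in the table, at chr13:48476200-48476499, holds 0 E2F words and 0 E-boxes. Whether the main start of RB1 lies there was not checked, and no other RB1 start was searched. A match is a matter of letters only, and no match says only that these letters are not in this window.

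None of the G1 genes passed the threshold with doxycycline. The largest differences, dox+ minus dox-, were -0.35 for RB1, -0.35 for RBL1 and -0.32 for CDK4 on the log2 scale, and the largest above 0 was 0.18 for the dimmer of the CCND2 probes. In limma's comparison of all 11 arrays 0 of 12 probes had a Benjamini-Hochberg adjusted p under 0.05, where 0.0418% of all 14338 probes did. At an unadjusted p under 0.05 the count was 2 of 12, or 16.7%, against 16.2% of all probes, so the share lay near that of the whole array. The sign of the difference was negative for 7 of 12 probes, against 50.4% of all probes. For all 12 probes the values of the dox+ and dox- samples overlapped, while 2.16% of all probes showed no overlap.

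**Figure D1:**
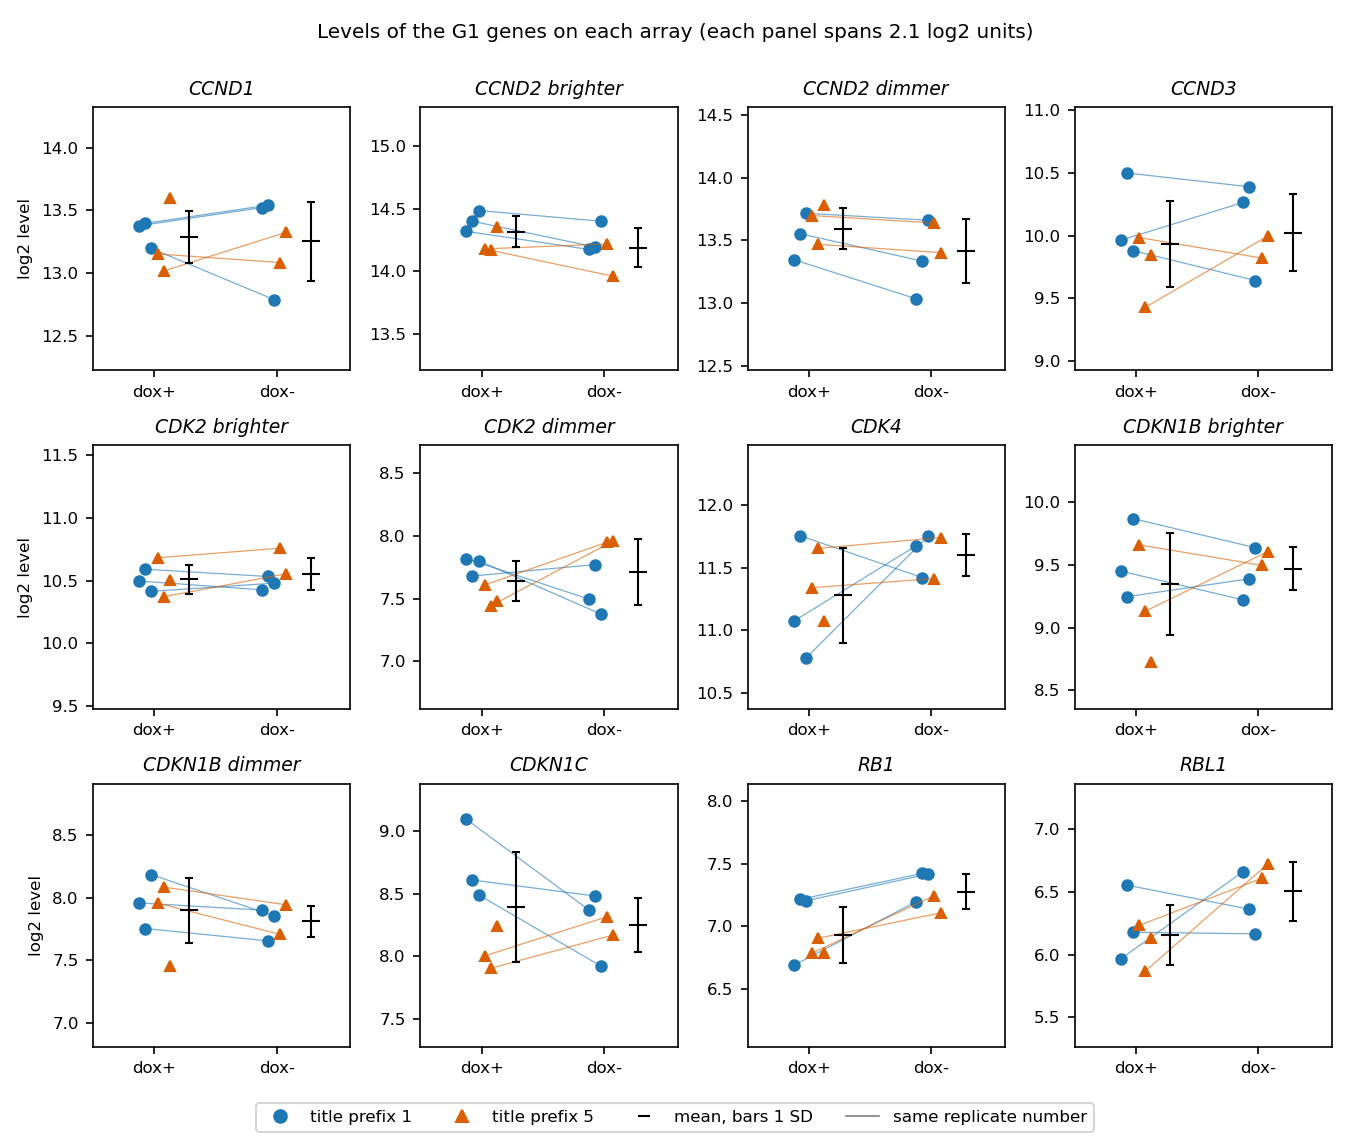
Log2 level of the 12 kept probes on each array, with a panel for each probe that spans the same number of log2 units; circles are title prefix 1, triangles title prefix 5, lines join same-numbered samples, and bars show the mean and 1 SD of the 6 dox+ and the 5 dox- samples. For RB1 all 5 lines run lower in dox+, and for CDK4 2 dox+ samples, at 11.66 and 11.76, stand among or above the dox- samples.

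RB1, on chromosome 13, is the retinoblastoma protein, the main brake on E2F factors. Its log2 level in dox+ samples ran between 6.69 and 7.22 with a median of 6.85, against 7.20, 7.42, 7.42, 7.25 and 7.11 in the dox- samples. Of the 6 dox+ samples 4 lay below every dox- sample and all 6 lay below the dox- median, although the groups overlapped. RB1 averaged 6.93 ± 0.23 in dox+ and 7.28 ± 0.14 in dox- samples (SD). The difference was -0.35 ± 0.14 (SE), with a 95% interval of -0.64 to -0.05, which is 78.6% of the dox- level. It did not pass over all probes (limma adjusted p = 0.229), and the exact permutation test of RB1 alone gave p = 0.0260, unadjusted and 1 of 12 such tests. In the 5 pairs of same-numbered samples RB1 was lower in dox+ every time, by 0.20 to 0.51, and 6.95% of all probes were lower in all 5 pairs. Without background correction, as in the authors' normalized values, the RB1 difference was -0.24. The RB1 probe was rather dim, with raw intensities of 145 to 255.

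RBL1 (p107), on chromosome 20, is a pocket protein that acts mainly with the repressor members of the E2F family and is itself made under E2F control. It measured 5.87 to 6.56 with a median of 6.16 in dox+ samples, against 6.66, 6.36, 6.17, 6.61 and 6.72 in dox- samples. Here 3 of the 6 dox+ samples lay below every dox- sample, and 2 dox- samples of prefix 1, at 6.36 and 6.17, lay within the dox+ range. The means were 6.16 ± 0.24 in dox+ and 6.51 ± 0.23 in dox- samples (SD), a difference of -0.35 ± 0.15 (SE; 95% interval -0.67 to -0.03; limma adjusted p = 0.272; exact permutation p = 0.0433). Without background correction, as in the authors' normalized values, the difference was -0.20. This RBL1 probe was dim, with raw intensities of 109 to 177, against 71.8 to 85.5 for the RBL1 probe that was left out. Its detection p reached 0.00527, where the limit was 0.01. The pairs did not all run one way, with RBL1 lower in 3 of 5.

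CDK4, on chromosome 12, is the kinase that D cyclins activate. Its values in dox+ samples ran between 10.78 and 11.76 with a median of 11.21, against 11.68, 11.42, 11.75, 11.41 and 11.74 in dox- samples. The dox+ samples were widely spread: 4 of them lay below every dox- sample and 1, at 11.76, lay above every one. CDK4 averaged 11.28 ± 0.38 in dox+ and 11.60 ± 0.17 in dox- samples (SD), a difference of -0.32 ± 0.18 (SE; 95% interval -0.70 to 0.05; limma adjusted p = 0.382; exact permutation p = 0.0909). It was lower in 4 of 5 pairs, and the widest gap, -0.98, was in a pair of prefix 1.

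CDK2, also on chromosome 12, is the kinase of cyclins E and A. Its brighter probe, ILMN_1665559, averaged 10.51 ± 0.11 in dox+ and 10.55 ± 0.13 in dox- samples, and its dimmer probe, ILMN_1653443, 7.64 ± 0.16 in dox+ and 7.71 ± 0.27 in dox- samples (SD). The differences of -0.04 ± 0.12 and -0.07 ± 0.14 (SE) were smaller than the spread between samples, with limma adjusted p of 0.899 and 0.850. Their 95% intervals, -0.29 to 0.21 and -0.38 to 0.24, bound the shift of CDK2 over all arrays. With single samples left out in turn, the brighter probe's difference lay between -0.08 and 0.01.

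The D cyclins carry growth signals to CDK4 and CDK6. CCND1, on chromosome 11, ran between 13.02 and 13.60 in dox+ and between 12.79 and 13.54 in dox- samples, with means of 13.29 ± 0.21 in dox+ and 13.25 ± 0.32 in dox- samples (SD). Its difference, 0.04 ± 0.16 (SE; 95% interval -0.31 to 0.38; limma adjusted p = 0.935), turned negative under scaling to a common median (-0.04), the replicate block (-0.02) and array weights (-0.03), so no direction can be given. CCND3, on chromosome 6, averaged 9.93 ± 0.34 in dox+ and 10.02 ± 0.31 in dox- samples (SD), a difference of -0.09 ± 0.19 (SE; limma adjusted p = 0.855). One dox+ sample of CCND3, at 9.43, lay below every dox- sample and another, at 10.50, above every one.

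CCND2, on chromosome 12, had 2 probes with differences of the same sign. The brighter, ILMN_2067656, averaged 14.32 ± 0.12 in dox+ and 14.19 ± 0.16 in dox- samples, and the dimmer, ILMN_1667081, 13.59 ± 0.17 in dox+ and 13.41 ± 0.26 in dox- samples (SD). The differences were 0.13 ± 0.12 and 0.18 ± 0.14 (SE), with limma adjusted p of 0.639 and 0.559. Of the same-numbered pairs, the brighter probe was higher in dox+ in 4 of 5 and the dimmer in 5 of 5, and 6.42% of all probes were higher in all 5 pairs. The other kept probe that was higher in all 5 pairs was the dimmer probe of CDKN1B.

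CDKN1B, the inhibitor p27 on chromosome 12, had 2 probes whose differences had opposite signs. The brighter, ILMN_1722811, averaged 9.35 ± 0.41 in dox+ and 9.47 ± 0.17 in dox- samples (SD), a difference of -0.12 ± 0.18 (SE; limma adjusted p = 0.781). The dimmer, ILMN_2196347, averaged 7.90 ± 0.26 in dox+ and 7.81 ± 0.12 in dox- samples (SD), a difference of 0.09 ± 0.14 (SE; limma adjusted p = 0.807). With the replicate block the brighter probe's difference was 0.0014. Both probes had their lowest value, 8.73 and 7.46, on the same array, dox+ replicate 6 of prefix 5, which has no same-numbered partner.

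CDKN1C, the inhibitor p57 and an imprinted gene of chromosome 11, measured 7.91 to 9.10 with a median of 8.37 in dox+ samples, against 8.37, 8.48, 7.92, 8.32 and 8.17 in dox- samples. The 3 highest values among all 11 arrays were those of the 3 dox+ samples of prefix 1. Over all arrays it averaged 8.39 ± 0.44 in dox+ and 8.25 ± 0.22 in dox- samples (SD), a difference of 0.14 ± 0.20 (SE; 95% interval -0.28 to 0.56; limma adjusted p = 0.768). Without dox+ replicate 1 the difference was near 0, at -0.0017.

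**Figure D2:**
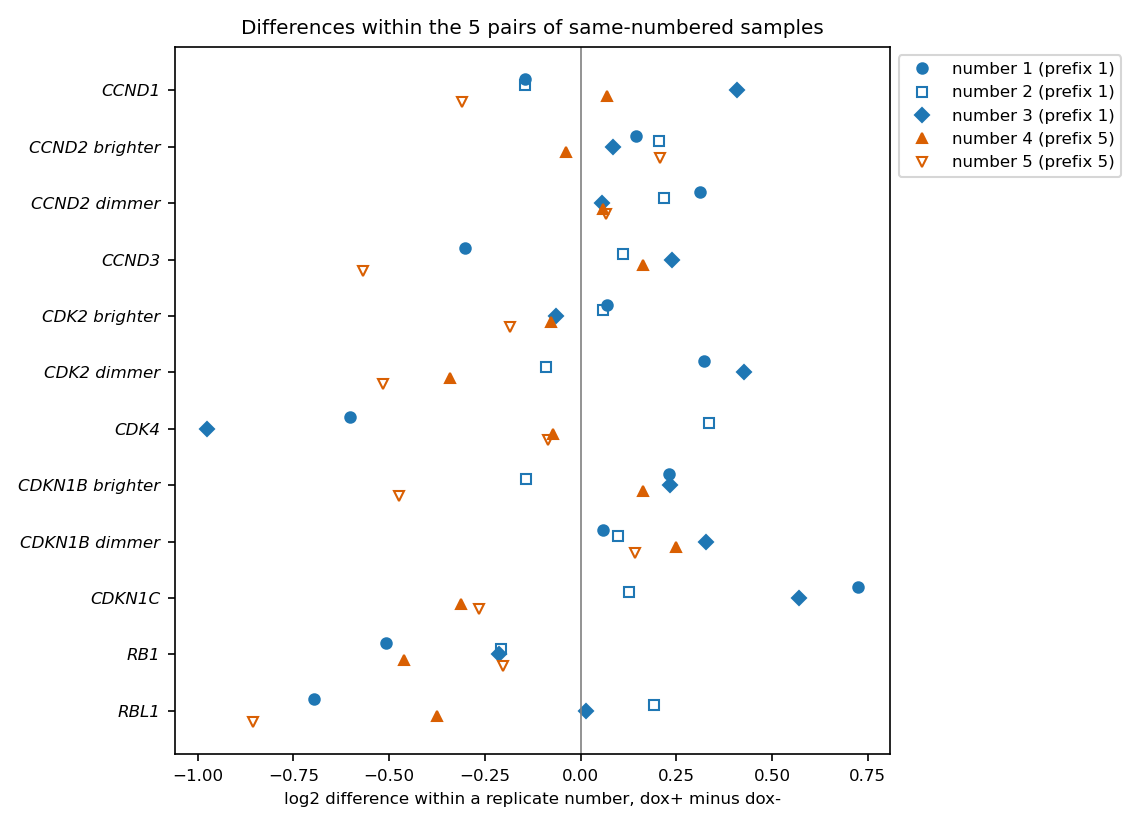
Log2 difference, dox+ minus dox-, within each of the 5 pairs of same-numbered samples for the 12 kept probes; blue signs are the 3 pairs of title prefix 1 and orange triangles the 2 pairs of title prefix 5. RB1 lies left of 0 in all 5 pairs, and CDKN1C lies right of 0 in the 3 pairs of prefix 1 and left of 0 in both pairs of prefix 5.

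The series used samples of 2 title prefixes, and the dox effect was taken within each in a model that shares the spread over all 11 arrays. In prefix 5, 0 of 12 probes passed at an adjusted p under 0.05, as did 0% of all probes, and 2 of 12 had an unadjusted p under 0.05, against 5.89% of all probes. In prefix 1, 0 of 12 passed where 4.87% of all probes did, and 1 of 12 had an unadjusted p under 0.05, against 24% of all probes. Over 1 probe a gene the median difference of the 9 genes was -0.19 in prefix 5 and 0.02 in prefix 1, and that of all 9854 genes was 0.01 in prefix 5 and 6e-04 in prefix 1. The median of the 9 genes in prefix 1 was -0.12 with array weights and -0.21 without dox- replicate 3, so no direction can be given for it.

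In prefix 5 RB1 averaged 6.83 ± 0.07 in dox+ (n = 3) and 7.18 ± 0.10 in dox- samples (n = 2), a difference of -0.35 ± 0.20 (SE; limma adjusted p = 0.863). In prefix 1 it averaged 7.04 ± 0.30 in dox+ and 7.35 ± 0.13 in dox- samples (SD, n = 3 each), a difference of -0.31 ± 0.18 (SE; limma adjusted p = 0.306). The effect in prefix 5 minus that in prefix 1 was -0.04 ± 0.27 (SE), with a 95% interval of -0.62 to 0.53, which includes 0. Leaving out 1 sample at a time moved the RB1 difference in prefix 1 between -0.40 and -0.14.

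RBL1 differed by -0.59 ± 0.22 (SE) in prefix 5, with 6.08 ± 0.19 in dox+ against 6.67 ± 0.08 in dox- samples (SD; limma adjusted p = 0.811). In prefix 1 the RBL1 difference was -0.16 ± 0.20 (SE; limma adjusted p = 0.647), and the test between prefixes gave -0.42 ± 0.30 (SE; limma adjusted p = 0.566). The prefix 1 value of RBL1 was -0.39 with array weights and lay between -0.32 and -0.030 with 1 sample left out, and its prefix 5 value was -0.34 without background correction. CDK4 differed by -0.22 ± 0.27 in prefix 5 and by -0.41 ± 0.24 in prefix 1 (SE), and these effects lay 0.19 ± 0.37 apart (SE; limma adjusted p = 0.845). With 1 sample left out CDK4 lay between -0.38 and -0.057 in prefix 5 and between -0.69 and -0.20 in prefix 1. Within prefix 1 the dox+ samples of CDK4 read 11.07, 11.76 and 10.78, against 11.68, 11.42 and 11.75 in dox- samples. The SD of CDK4 in dox+ samples was 0.29 in prefix 5 and 0.50 in prefix 1.

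CDKN1C and the dimmer CDK2 probe had differences of opposite sign in the prefixes. In prefix 5 CDKN1C read 8.0, 7.91 and 8.25 in dox+ samples, against 8.32 and 8.17 in dox- samples, a difference of -0.19 ± 0.23 (SE; limma adjusted p = 0.930). In prefix 1 it read 9.10, 8.61 and 8.49 in dox+ samples, against 8.37, 8.48 and 7.92 in dox- samples, a difference of 0.47 ± 0.21 (SE; limma adjusted p = 0.182), which lay between 0.29 and 0.59 with 1 sample left out. In prefix 1 the lowest dox+ value of CDKN1C, 8.49, lay just above the highest dox- value, 8.48, and in prefix 5 the groups overlapped. The test between the prefixes gave -0.67 ± 0.31 (SE; 95% interval -1.34 to 0.0031) and did not pass (limma adjusted p = 0.407).

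The dimmer CDK2 probe read 7.61, 7.44 and 7.49 in dox+ samples of prefix 5, against 7.95 and 7.96 in dox- samples, a difference of -0.44 ± 0.18 (SE; limma adjusted p = 0.825). In prefix 1 it read 7.82, 7.68 and 7.80 in dox+ samples, against 7.50, 7.77 and 7.38 in dox- samples, a difference of 0.22 ± 0.16 (SE; limma adjusted p = 0.422). The test between prefixes gave -0.66 ± 0.24 (SE; limma adjusted p = 0.324), while the brighter CDK2 probe gave -0.16 ± 0.23 (SE; limma adjusted p = 0.796). Between prefixes 0 of 12 probes passed, where 0.0209% of all probes did, and 1 of 12 had an unadjusted p under 0.05, against 12.3% of all probes. For 10 of 12 probes the effect in prefix 5 was below that in prefix 1, against 49.9% of all probes. Over 1 probe a gene this held for 7 of 9 genes, against 4885 of all 9854 genes. The median of the 9 genes was -0.16, and -0.0016 without dox+ replicate 2.

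**Figure D3:**
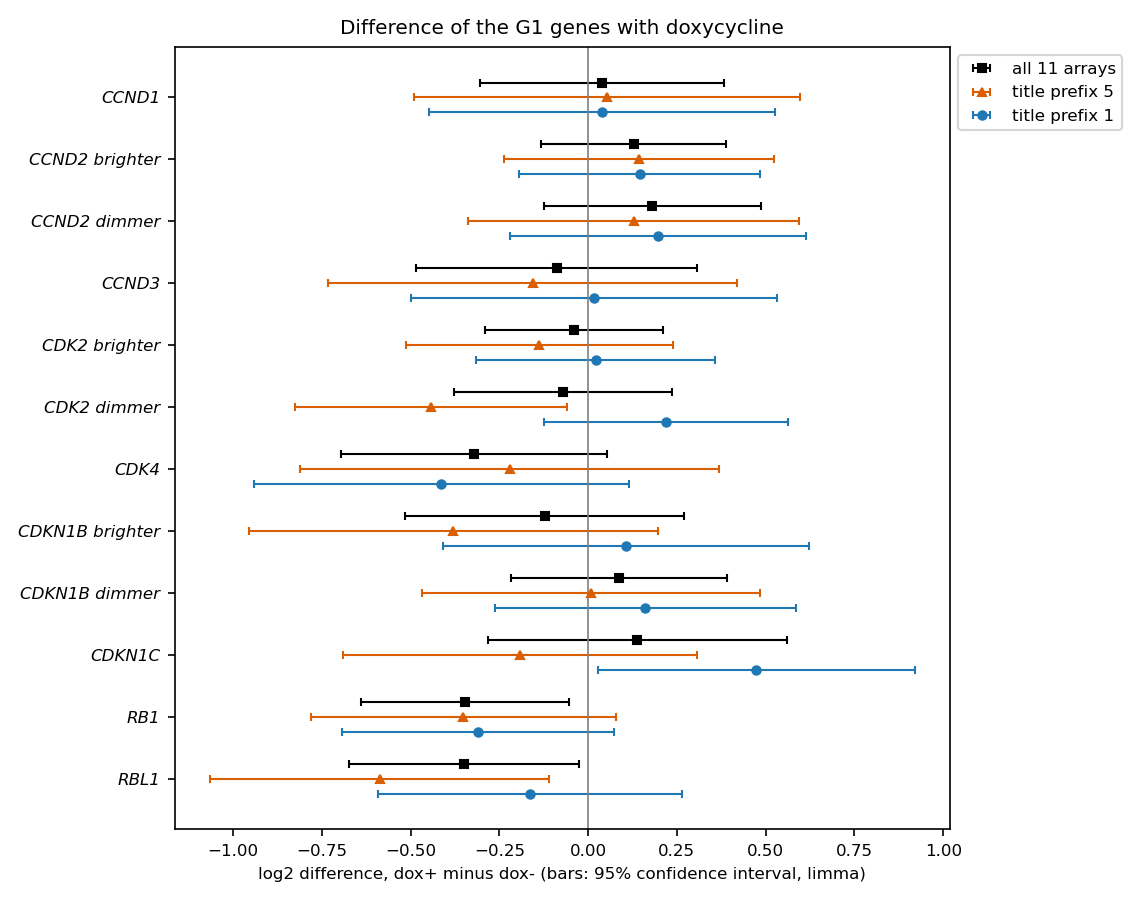
Log2 difference, dox+ minus dox-, of the 12 kept probes with 95% confidence intervals from limma, over all 11 arrays (black squares), in title prefix 5 (orange triangles) and in title prefix 1 (blue circles). The black intervals of RB1 and RBL1 end below 0, at -0.05 and -0.03 before adjustment over all probes, and CDKN1C and the dimmer CDK2 probe lie on opposite sides of 0 in the prefixes.

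The remaining cyclin and inhibitor probes had 95% intervals that included 0 within both prefixes. CCND1 differed by 0.05 ± 0.25 in prefix 5 and by 0.04 ± 0.23 in prefix 1 (SE), with both signs turned by scaling to a common median (-0.03 in each) and by array weights (-0.0039 in prefix 5 and -0.12 in prefix 1). The brighter CCND2 probe differed by 0.14 ± 0.18 in prefix 5 and by 0.15 ± 0.16 in prefix 1, and the dimmer by 0.13 ± 0.22 in prefix 5 and by 0.20 ± 0.19 in prefix 1 (SE). CCND3 differed by -0.16 ± 0.27 in prefix 5 and by 0.02 ± 0.24 in prefix 1 (SE), the sign in prefix 1 turning under scaling to a common median (-0.04) and array weights (-0.17). The brighter CDKN1B probe differed by -0.38 ± 0.27 in prefix 5 and by 0.11 ± 0.24 in prefix 1, and the dimmer by 0.0082 ± 0.22 in prefix 5 and by 0.16 ± 0.20 in prefix 1 (SE). With 1 sample left out, the brighter probe's prefix 5 value lay between -0.62 and -0.16.

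The level of the G1 genes was also compared between the prefixes, with dox in the model. Here 0 of 12 probes passed, where 0.0767% of all probes did, and 1 of 12 had an unadjusted p under 0.05, against 11.4% of all probes. That probe was CDKN1C, with -0.38 ± 0.18 in prefix 5 minus prefix 1 (SE; limma adjusted p = 0.428). Its dox- samples averaged 8.24 ± 0.10 in prefix 5 and 8.26 ± 0.30 in prefix 1 (SD). The CDKN1C dox+ samples averaged 8.05 ± 0.17 in prefix 5 and 8.73 ± 0.32 in prefix 1 (SD). The difference in its level thus lay in the dox+ samples. CCND3 followed, with -0.29 ± 0.18 (SE; limma adjusted p = 0.563), and RB1 with -0.19 ± 0.13 (SE; limma adjusted p = 0.606). The CCND2 probes had opposite signs here, -0.17 ± 0.12 for the brighter and 0.14 ± 0.14 for the dimmer (SE).

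Around these genes stand other regulators of the same step. Of 37 listed, 31 had a kept probe, and over all arrays 0 passed at an adjusted p under 0.05, while 4 were lower and 2 higher at an unadjusted p under 0.05, near the share over all 9854 genes, of which 740 were lower and 842 higher. Their median difference was -0.13, and 18 of 31 were negative; over all genes the median was 0.01, with 4757 negative. CCNE2, CDKN2A, E2F1, E2F8 and LIN37 were detected on 0 arrays and MNAT1 on at most 2.

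CDK7, the kinase that activates CDK4 and CDK2 by phosphorylation, averaged 8.94 ± 0.31 in dox+ and 8.24 ± 0.32 in dox- samples (SD), a difference of 0.71 ± 0.18 (SE; limma adjusted p = 0.108; higher in 5 of 5 pairs). Of all probes 6.42% were higher in all 5 pairs. In prefix 5 the CDK7 difference was 0.41 ± 0.26 (SE; limma adjusted p = 0.878), and in prefix 1 CDK7 rose by 0.92 ± 0.23 (SE; limma adjusted p = 0.0436). That call was lost with no filter on dim probes (limma adjusted p = 0.0990), in a fit of prefix 1 alone (0.0586), and without any one of dox- replicates 1, 2, 3, 4 or 5 or dox+ replicates 1, 3 or 4 (0.0518 to 0.156). The difference between prefixes for CDK7 was -0.50 (limma adjusted p = 0.562). CDK7 was 1 of 31 regulators past the threshold in prefix 1, where 269 of all 9854 genes were higher and 196 lower.

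CDK6, the other partner of D cyclins, averaged 8.23 ± 0.28 in dox+ and 8.74 ± 0.32 in dox- samples (SD), a difference of -0.51 ± 0.17 (SE; limma adjusted p = 0.182), and was lower in 5 of 5 pairs. SKP2, which marks CDKN1B for degradation, differed by -0.53 ± 0.16 (SE; limma adjusted p = 0.148). CDC25A, a phosphatase that activates CDK2, differed by -0.38 ± 0.15 (SE; limma adjusted p = 0.245). RBL2, the pocket protein p130, had a difference above 0, with 9.46 ± 0.13 in dox+ and 9.15 ± 0.10 in dox- samples (SD), a difference of 0.30 ± 0.12 (SE; limma adjusted p = 0.224; higher in 5 of 5 pairs). Over all probes 6.42% were higher and 6.95% lower in all 5 pairs. CDKN1A (p21) differed by 0.31 ± 0.21 (SE; limma adjusted p = 0.480), and CCNE1, the cyclin that activates CDK2, by -0.04 ± 0.15 (SE; limma adjusted p = 0.919), a sign that turned without some single samples.

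Genes that E2F factors switch on for DNA replication were listed as the readout of the step. Of 20 listed, 18 had a kept probe, and GINS1 was detected on 0 arrays. Over all arrays 0 of 18 passed, 6 were lower and 0 higher at an unadjusted p under 0.05, and 15 of 18 were negative, with a median of -0.27. Of all 9854 genes 740 were lower and 842 higher at that p, and 4757 were negative. In prefix 5 the median was -0.09, with 12 of 18 negative and 0 of 18 lower at an unadjusted p under 0.05, where 4770 of 9854 genes were negative and 228 lower at that p. In prefix 1 it was -0.46, with 16 of 18 negative and 11 of 18 lower at that p, where 4923 of 9854 genes were negative and 1140 lower at that p. The effect in prefix 5 minus that in prefix 1 had a median of 0.43, with 16 of 18 above 0, against 4969 of 9854 genes. Between prefixes 0 of 18 passed, and 2 of 18 were above 0 at an unadjusted p under 0.05, against 601 of 9854 genes. The list was chosen with earlier results of these data known.

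RRM2, a subunit of ribonucleotide reductase, ran between 8.43 and 9.12 in dox+ samples and between 9.23 and 9.51 in dox- samples without overlap, a difference of -0.54 ± 0.14 (SE; limma adjusted p = 0.108). UHRF1, a cofactor of maintenance DNA methylation, differed by -0.62 ± 0.19 (SE; limma adjusted p = 0.157), and CDC6, which loads the replicative helicase, by -0.43 ± 0.15 (SE; limma adjusted p = 0.190). POLA1, the catalytic subunit of DNA polymerase alpha, differed by -0.48 ± 0.17 (SE; limma adjusted p = 0.203), and TYMS, thymidylate synthase, by -0.37 ± 0.16 (SE; limma adjusted p = 0.278). The CDC6 probe was dim, at a mean of 6.15 in dox+ and 6.58 in dox- samples. Without background correction, as in the authors' normalized values, the CDC6 difference was -0.25. RRM2, POLA1 and TYMS were each lower in 5 of 5 pairs, and UHRF1 and CDC6 in 4 of 5. Of all probes 6.95% were lower in all 5 pairs, and 2.16% showed no overlap of the dox+ and dox- samples.

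The 1 target past the threshold within a prefix was MCM2, a subunit of the replicative helicase, chosen for mention after its values were seen. It differed by -0.01 ± 0.21 in prefix 5 (SE; limma adjusted p = 0.997), and in prefix 1 it fell by 0.75 ± 0.19 on the log2 scale (SE; limma adjusted p = 0.0415). The MCM2 call was lost with no filter (limma adjusted p = 0.0674), in a fit of prefix 1 alone (0.0673), and without any one of dox- replicates 1, 2, 3, 4 or 5 or dox+ replicates 1, 3 or 4 (up to 0.142). The difference between prefixes for MCM2 was 0.74 (limma adjusted p = 0.335). MCM2 was 1 of 18 targets past the threshold in prefix 1, where 196 of all 9854 genes were lower and 269 higher.

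**Figure D4:**
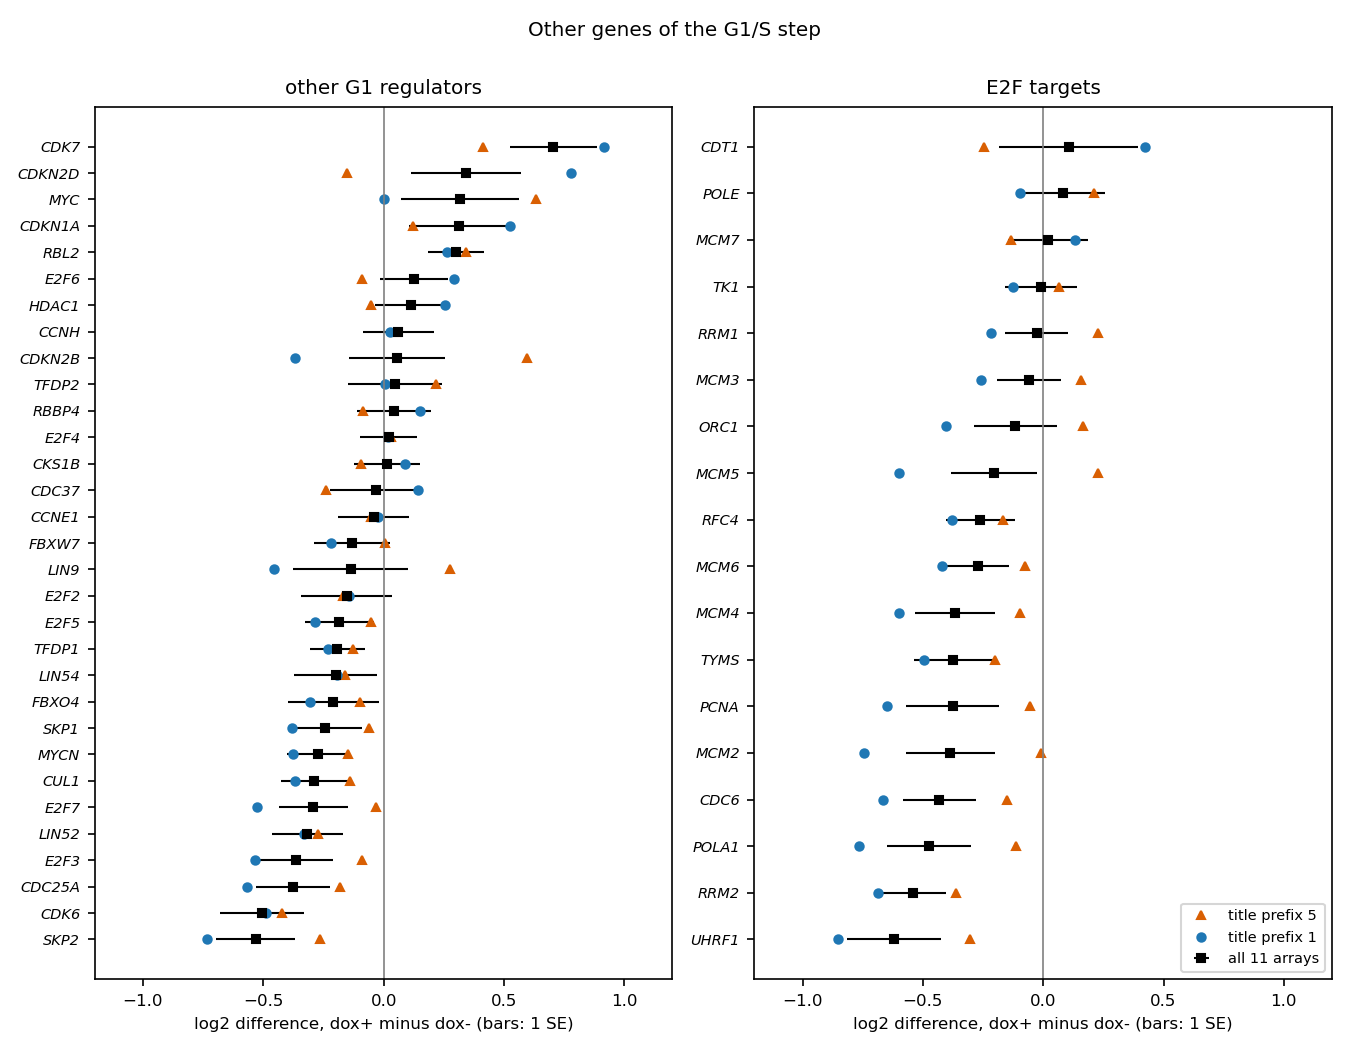
Log2 difference, dox+ minus dox-, of the 31 other G1 regulators (left) and 18 E2F targets (right) with a kept probe, sorted by the difference over all 11 arrays (black squares, bars 1 SE), with title prefix 5 as triangles and title prefix 1 as circles. The black squares lie left of 0 for 18 of 31 regulators and for 15 of 18 targets.

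The genes whose levels moved most like a G1 gene over the 11 arrays were found by the mean absolute distance of standardised levels among 9853 other genes. For RB1, the G1 gene with the smallest unadjusted p in the comparison of all arrays, they were POLR2J at 0.277, SLC39A8 at 0.363 and PRMT1 at 0.388, where the median gene lay at 1.09. For CDKN1C, with the largest difference in level between prefixes, they were TOP3B at 0.194, TOB1 at 0.331 and KLF6 at 0.352, against a median of 1.10. The distances describe 11 arrays that share a platform and a normalization.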

How the data were processed

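The 11 NT2D1 samples were each measured on an Illumina bead array. For every probe the authors deposited a raw, linear intensity and, per the file headers, a detection p-value, which moves in 759 equal steps. The authors' matrix holds quantile-normalized intensity, and the submitters' processing notes name limma without a version. Intensities were processed here with neqc (offset 16) of limma 3.58.1 in R 4.3.3 with statmod 1.5.0, and levels are on the log2 scale. A probe was kept (14338 were) if 5 or more arrays gave it a detection p below 0.01. The number of arrays limits the precision. Differences were tested with limma, two-sided, with Benjamini-Hochberg adjustment over all kept probes, in a model of dox, or of dox and title prefix with their interaction, or of dox and prefix for levels. Single probes had an exact two-sided permutation test over 462 splits, whose smallest p is 0.00216. The splits took no account of title prefix or of same-numbered pairs. A gene with several probes was represented in lists by the brightest. Probe symbols came from the platform annotation, updated by gene identifier; 28098 probes had 1 symbol, 13 several, and 20692 were unnamed here. Genes named were the 10 G1 genes, L1TD1, the 5 smallest unadjusted p of each other list, and CCNE1, CCNE2, CDK6, CDKN1A, CDKN2A, RBL2 and E2F1. MCM2 and the listed genes named as not kept (E2F8, LIN37, MNAT1 and GINS1) were chosen after their values were seen. The genes and lists were chosen with earlier results of these data known. The limma script was tested on simulated data. Alternatives were the background correction, the normalization, the filter, array weights, the replicate number or prefix as a block, fits within a prefix, and leaving out each sample.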

Additional observations from a re-analysis of the deposited data

Results flagged for a closer look

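For CDKN1C the pairs of same-numbered samples went opposite ways in the prefixes: dox+ was lower in both pairs of prefix 5, by 0.31 and 0.27, and higher in all 3 pairs of prefix 1, by 0.72, 0.13 and 0.57 on the log2 scale. The effect in prefix 5 minus that in prefix 1 was -0.67 ± 0.31 (SE) and did not pass the test of the difference itself (limma adjusted p = 0.407, with a range of 0.146 to 0.700 over the alternatives). In 24 tests for a sample far from the others of its group, 1 for each of 12 probes and both groups, 0 passed.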

How the results depend on the processing

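Over all arrays, within each prefix, between prefixes and for levels, 0 of 12 probes passed in every alternative run, so no call of a G1 gene was gained or lost. RB1 stayed between -0.40 and -0.24 (adjusted p 0.177 to 0.405), RBL1 between -0.43 and -0.20 (0.175 to 0.507) and CDK4 between -0.42 and -0.22. For L1TD1 the adjusted p fell below 0.05 without background correction or with the authors' values (0.0435, at -0.76), with array weights (0.0453) and without dox+ replicate 5 (0.0351). The count of all probes past the threshold over all arrays was 6, against 0 to 26 with a sample left out and 0 to 31 otherwise; in prefix 1 it was 698, against 1 to 1138 and 292 to 2674; in prefix 5 it was 0, against 0 to 1 and 0; between prefixes 3, against 0 to 4 and 0 to 166; and for levels 11, against 4 to 20 and 0 to 110. The median over the 9 genes in prefix 1 was -0.12 with array weights and between -0.21 and 0.093 with a sample left out; between prefixes it lay between -0.24 and -0.0016. The signs that turned are given below, and the cause was not tested.

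Under scaling to a common median the turned differences were, for CCND1, -0.039 over all arrays, -0.034 in prefix 5, -0.032 in prefix 1 and -0.0019 between prefixes; in prefix 1, -0.042 for CCND3 and -0.037 for the brighter CDK2 probe; and in prefix 5, -0.0023 for the dimmer CDKN1B probe. With array weights they were, for CCND1, -0.031 over all arrays, -0.0039 in prefix 5 and -0.12 in prefix 1; for CCND3, -0.17 in prefix 1 and 0.13 between prefixes; and 0.024 for the level of the brighter CDKN1B probe. With the replicate block they were, for CCND1, -0.024 over all arrays, -0.12 in prefix 5 and -0.16 between prefixes; 0.0014 for the brighter CDKN1B probe over all arrays; and 0.034 for the dimmer between prefixes. As a random block the number gave -0.015 for CCND1 between prefixes.

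Leaving out 1 sample at a time turned signs as follows, given as lowest and highest. Over all arrays these were CCND1 (-0.078 to 0.11), CCND3 (-0.20 to 0.012), brighter CDK2 (-0.075 to 0.011), brighter CDKN1B (-0.23 to 0.0014), CDKN1C (-0.0017 to 0.24) and CCNE1 (-0.13 to 0.032). In prefix 5 they were CCND1 (-0.12 to 0.17), CCND3 (-0.27 to 0.0065) and dimmer CDKN1B (-0.12 to 0.20). In prefix 1 they were CCND1 (-0.21 to 0.17), CCND3 (-0.21 to 0.16), brighter CDK2 (-0.024 to 0.064) and brighter CDKN1B (-0.067 to 0.24). Between prefixes they were CCND1 (-0.16 to 0.26), dimmer CCND2 (-0.23 to 0.087), brighter CCND2 (-0.13 to 0.13), CCND3 (-0.32 to 0.057), CDK4 (-0.019 to 0.47), dimmer CDKN1B (-0.28 to 0.034) and RB1 (-0.21 to 0.049). For levels they were dimmer CDK2 (-0.036 to 0.093), CDK4 (-0.048 to 0.20), brighter CDKN1B (-0.23 to 0.0043), dimmer CDKN1B (-0.12 to 0.038) and RBL1 (-0.033 to 0.14).

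Same-numbered samples share a prefix, but no label states that the number is the clone. Their deviations from the group means correlated over 0.1 in 1 of 5 pairs (-0.19 to 0.40), and 1 of 5 dox- samples correlated best with its own number. With the replicate block RB1 was -0.32 (adjusted p 0.324), RBL1 -0.34 (0.412) and CDK4 -0.28 (0.529), and the block changed 0 calls of the G1 genes.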
